A study of Mus musculus with 5 samples.

Results

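The 34 genes described here encode heat shock proteins and other chaperones of the cytosol and the mitochondria, with their co-chaperones and the heat shock transcription factors Hsf1 and Hsf2. They were chosen by gene symbol, and all 34 were found among the 55401 genes of the deposited table. RNA-seq was done on wild-type mouse bone marrow mesenchymal stem cells (BMSCs), adherent marrow stromal cells that can form bone, fat and cartilage in culture. The control culture was kept at 0 mmHg, and the other cultures were kept under continuous negative pressure of -80, -120, -160 or -200 mmHg for 48 h. All had been seeded in flasks and cultured for 72 h, with 1 library for each of the 5 conditions. Differences between conditions were therefore not checked by replicates. The sources used here do not say whether the cells came from 1 animal or a pool.

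Chaperones bind unfolded or partly folded proteins and help them reach or keep their shape. HSP70 proteins take up exposed chains with the help of J-domain partners and nucleotide exchange factors. HSP90 acts later on kinases and receptors, and the ring-shaped chaperonins (TRiC in the cytosol, HSP60 with HSP10 in mitochondria) enclose a chain while it folds. Under heat or other protein damage the transcription factor HSF1 binds heat shock elements in promoters and switches on many of these genes. Mesenchymal cells secrete and assemble much protein and are exposed to mechanical load, and small heat shock proteins with BAG3 are known for handling damaged actin-bound proteins in loaded cells.

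The library totals recovered from the table lay between 16600622 and 18398911 reads. A level is given in FPKM (fragments scaled by exon length and by library depth), which allows genes of different length to be compared. That length counts all annotated exons of a gene, so levels of different genes compare only roughly. A difference is given as a log2 ratio of FPKM + 1, which understates the change of genes with low values. A gene was counted as higher or lower when that ratio reached 2-fold, and as measured when its mean over the 5 libraries was at least 1 FPKM. The median of all 12113 genes measured stood 0.14 to 0.16 above the control at the 4 pressures, so the members are given beside that shift. Intervals are 95% Clopper-Pearson intervals of read ratios and hold counting error alone. Without molecular identifiers the reads need not be independent molecules.

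The control library stood apart from the others. It held 2493 reads of Ddx3y, Eif2s3y, Uty and Kdm5d, which lie on the Y chromosome, and the 4 pressure libraries held 0. In any comparison with the control, effects of pressure and of where the control cells came from therefore cannot be told apart. The stromal marker list was expressed in all 5 libraries, with a summed level of 3271 FPKM in the control, against 1838 to 2105 FPKM under pressure. Its 9 measured members were split, with the control above all 4 pressures in 5 and below all 4 in 4. The shares over all genes measured were 33.3% and 51.5%. Ly6a alone was 2-fold lower at all 4 pressures. Thy1, another member of the stromal list, had 1 read in the control and 51 to 91 reads under pressure. Summed macrophage markers stood at 28.3 FPKM in the control, against 67.8 to 75.5 FPKM under pressure. All 3 measured members of that list, Lyz2, Cd68 and Cd14, were 2-fold higher at all 4 pressures. Of its members below 1 FPKM on average, Aif1 and Csf1r were lowest in the control, and Fcer1g was highest there. In that list Itgam and Tyrobp had 0 reads in every library, and Ptprc had at most 2 reads. Endothelial markers summed to 1.09 FPKM and 3.39 to 4.95 FPKM. Plvap, the 1 measured among them, was 2-fold higher at all 4 pressures, and Emcn had 0 reads. Adipocyte markers, almost all of it Fabp4, summed to 21.9 FPKM and 1.53 to 1.95 FPKM. Striated muscle markers, which matter for Cryab and the small heat shock proteins, summed to at most 0.0854 FPKM. The genes of cycling cells differed as well, with a summed level of 329.9 FPKM in the control, 179.4 FPKM at -160 mmHg and 127.4 to 133.8 FPKM in the remaining libraries. The part of these differences in the results below was not tested. In bulk RNA, fewer cells of a type and less RNA per cell cannot be told apart.

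Most chaperone genes lay within 2-fold of the control, as did most of all genes measured. Of the 34 members 33 were measured, and 29 of them passed the 2-fold rule at no pressure, against 78.1% of all genes measured. At all 4 pressures 0 members were higher (6.49% of all genes) and 2 were lower (4.46% of all genes), namely Hspe1 and Trap1. Counted at each pressure alone, 3, 3, 2 and 2 members were lower at -80, -120, -160 and -200 mmHg, against 6.89%, 6.45%, 6.03% and 6.38% of all genes. In the other direction 0, 0, 0 and 1 were higher, against 10.7%, 8.85%, 9.59% and 9.10% of all genes. The median difference of the measured members was -0.21, -0.15, -0.11 and -0.16 in the same order, below the shift of all genes.

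By direction alone, the control lay above all 4 pressure libraries in 19 of the 33 measured members and below all 4 in 12. The shares over all genes measured were 33.3% and 51.5%. The TRiC subunits and the J-domain and nucleotide exchange genes lay largely on 1 side each, and the other groups were split. Of the 7 genes of HSP90 and its co-chaperones, Trap1 included, 5 had the higher control and 2 the lower. Of the 6 HSP70 and HSP110 genes 2 had the higher control and 3 the lower. All 8 TRiC subunits, both cytosolic HSP90 genes, Hspa8, Hspd1, Hspe1 and Trap1 were among those with the higher control. Of the 6 J-domain and nucleotide exchange genes 5 had the lower control, as did the HSP110 family genes Hspa4 and Hsph1, Hspa9 and Hsf2. Dnajb1, 1 of these 5, was level with the control at -80 mmHg (16.5 FPKM in both). These sides depend on scaling for the smaller differences. Under quantile normalization 13 members lay above the control and 13 below it at all 4 pressures, and Hsp90ab1 and Cct2 changed sides. With the trimmed mean of log ratios centred on 0 the counts were 7 and 22, Dnajb1 changed sides, and Dnaja2, Hspa9, Hspb8 and Stip1 no longer lay on one side. Hsf2, Hsph1, Bag3, Chordc1 and Dnaja1 stayed above the control in each scaling tried, and Hspe1, Trap1, Cct8, Hspd1 and Hspa8 stayed below. Summed over all 34 members, the level was 3193 FPKM in the control and 2473, 2595, 2696 and 2743 FPKM in order of pressure.

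**Figure D1:**
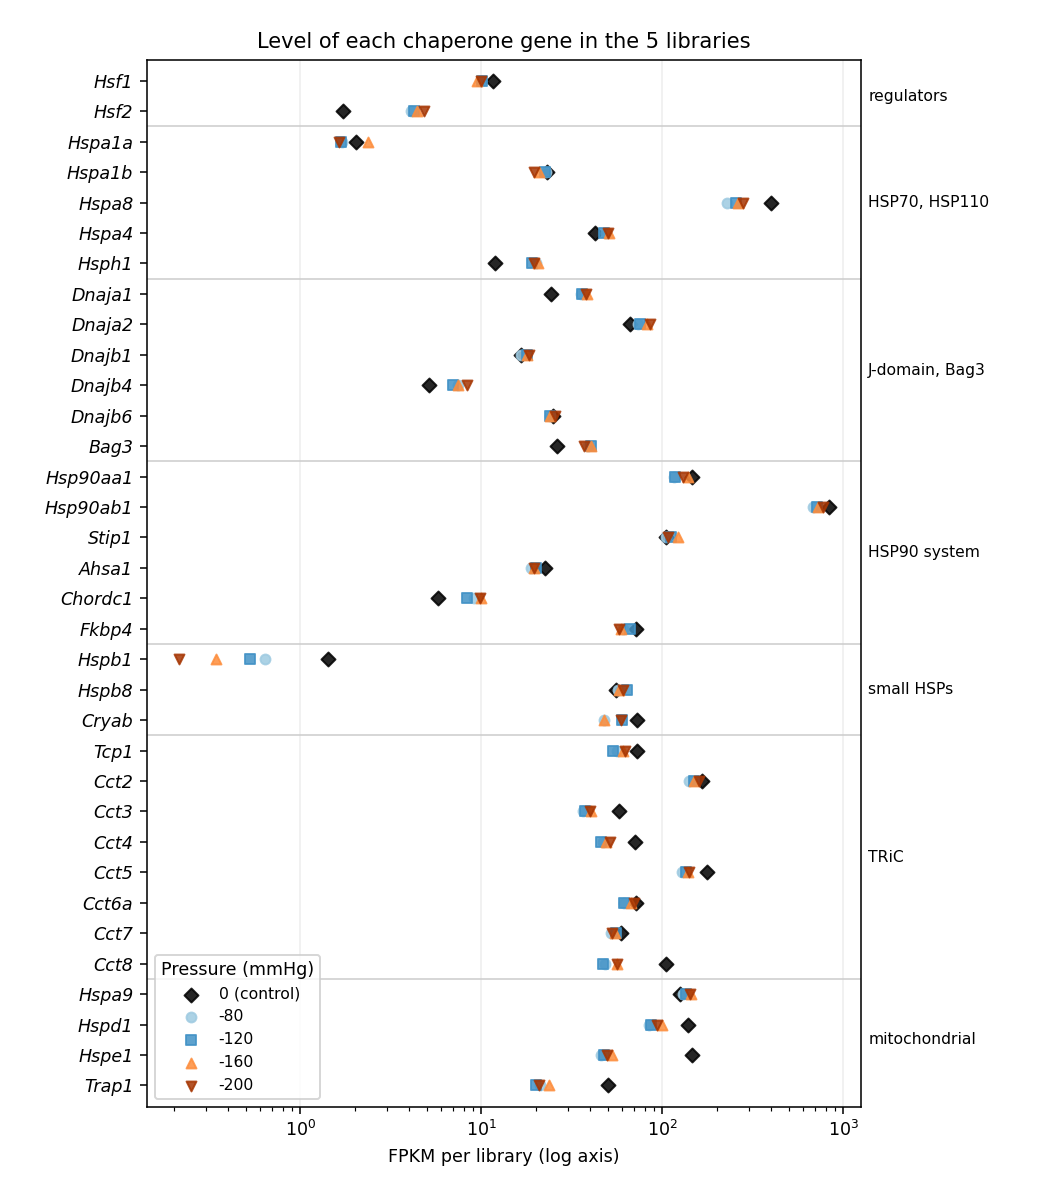
FPKM (log axis) of each of the 34 chaperone genes in the 5 libraries, 1 symbol per library, with genes grouped by role. Hsp90ab1 is the most abundant member at 682 to 827 FPKM, and Hspb1 the least, with 0.215 to 1.42 FPKM.

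The 2 transcription factors of the list, which regulate the other members, did not move together. Hsf1, the main activator of the heat shock response, stood at 11.7 FPKM in the control and at 9.96, 10.1, 9.48 and 9.97 FPKM at -80, -120, -160 and -200 mmHg. The control was the highest of the 5, and the pressure libraries differed from it by less than 2-fold. Hsf2, a related factor that can pair with HSF1 and act in development, stood at 1.71 FPKM in the control and at 4.07, 4.26, 4.42 and 4.85 FPKM in order of pressure. All 4 pressure libraries were above the control, and they stood in increasing order of pressure. Reads of Hsf2 per library total were 2.37 times those of the control at -80 mmHg (95% interval 2.07 to 2.73) and 2.83 times at -200 mmHg (2.48 to 3.24). On the log2(FPKM + 1) scale the difference was 0.90 at -80 mmHg and 1.11 at -200 mmHg, so Hsf2 passed the size rule at -200 mmHg and missed it narrowly at -160 mmHg (0.999). With a pseudocount of 0.1 it passed at all 4 pressures, with a mean difference of 1.31 in place of 0.99, and with a pseudocount of 5 the mean difference was 0.48. Between -80 and -200 mmHg the read ratio of Hsf2 was 1.19 (1.07 to 1.32).

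The promoters of several members carry heat shock elements, the inverted repeats of GAA that HSF1 binds. Promoter sequences (RefSeq, GRCm38.p6, from 250 bases before to 50 after a start) were matched for 27 of the 34 members. The other 7 (Cct4, Cryab, Hsf1, Hsp90aa1, Hsp90ab1, Hspa8 and Hspa9) had no promoter sequence and were not searched. A pair of units, GAANNTTC or TTCNNGAA, was found in 16 of the 27 matched members and in 17.0% of the 27025 genes with a promoter in the table. The row of 3 units, which is GAANNTTC with a further GAA 2 bases on, searched on both strands, was found in 5 of 27 members and in 0.662% of all genes. These 5 were Hspd1, Hspe1, Hsph1, Chordc1 and Dnajb6. A row of 3 units always holds both kinds of pair. The sequences below run from 150 bases before to 30 after a start for those with 3 units, and for the stress-inducible Hspa1b, which had a single pair. Capitals mark every heat shock element found by these patterns.
Hspe1, chr1:55087998-55088177, plus strand: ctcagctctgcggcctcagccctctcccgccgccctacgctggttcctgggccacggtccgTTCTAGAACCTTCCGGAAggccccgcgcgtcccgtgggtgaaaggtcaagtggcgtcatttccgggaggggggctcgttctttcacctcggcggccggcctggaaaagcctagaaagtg
Hsph1, chr5:149636286-149636465, minus strand: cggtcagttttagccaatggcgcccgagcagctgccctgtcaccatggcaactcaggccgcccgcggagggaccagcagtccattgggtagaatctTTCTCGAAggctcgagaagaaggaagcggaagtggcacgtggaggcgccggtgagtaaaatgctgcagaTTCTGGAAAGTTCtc
Chordc1, chr9:18292117-18292296, plus strand: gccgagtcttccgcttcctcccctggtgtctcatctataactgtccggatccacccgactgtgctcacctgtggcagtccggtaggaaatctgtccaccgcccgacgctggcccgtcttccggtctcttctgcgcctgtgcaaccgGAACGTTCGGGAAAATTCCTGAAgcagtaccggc
Dnajb6, chr5:29735748-29735927, plus strand: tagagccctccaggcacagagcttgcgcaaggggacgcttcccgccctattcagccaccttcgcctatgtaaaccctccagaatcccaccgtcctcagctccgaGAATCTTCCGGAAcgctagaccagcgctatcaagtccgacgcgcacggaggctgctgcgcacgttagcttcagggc
Hspa1b, chr17:34959209-34959388, minus strand: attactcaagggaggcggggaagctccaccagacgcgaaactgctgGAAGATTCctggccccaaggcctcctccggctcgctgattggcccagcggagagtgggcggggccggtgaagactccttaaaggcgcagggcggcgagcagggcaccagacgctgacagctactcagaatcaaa

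Hspd1 and Hspe1 lie head to head on chromosome 1, and 285 of the 300 bases of their promoter windows are the same DNA read on opposite strands. The capitals shown for Hspe1 therefore also lie in the Hspd1 window. The 5 genes that hold the row of 3 units did not share a direction. Their mean differences from the control over the 4 pressures were -0.61 for Hspd1, -1.55 for Hspe1, -0.04 for Dnajb6, 0.61 for Chordc1 and 0.69 for Hsph1. A match in these letters is a description of the window and not a measured binding site.

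The HSP70 family has a constitutive cytosolic form, Hspa8, and an inducible pair, Hspa1a and Hspa1b. Hspa8, the constitutive cytosolic HSP70 and the second most abundant member, stood at 396 FPKM in the control and at 227, 255, 263 and 279 FPKM in order of pressure. The control was the highest, and the pressure libraries stood in increasing order. Reads of Hspa8 per library total were 0.573 times the control at -80 mmHg (0.562 to 0.584) and 0.705 times at -200 mmHg (0.693 to 0.718). The mean difference of -0.63 was -0.09 under quantile normalization, where that of Hspa1b was -0.08. Of the 50-base stretches in the Hspa8 transcripts 39.4% occur in 1 or more of 16 other annotated genes, so its reads may be split or dropped in counting.

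Hspa1a and Hspa1b, adjacent heat-inducible genes on chromosome 17 (34969190 to 34972156 and 34956436 to 34959238), encode nearly the same protein. Their promoter windows were equal at 296 of 300 bases, and 66.3% and 62.3% of the 50-base stretches of their transcripts occur in another gene, mainly in each other. Their levels are therefore uncertain one by one. Hspa1a was listed at 2.03 FPKM in the control and 1.70, 1.69, 2.36 and 1.64 FPKM in order of pressure, with 83 to 119 reads per library. Hspa1b stood at 23.0 FPKM in the control and at 22.6, 22.5, 20.8 and 19.4 FPKM. The sum of both was 25.1 FPKM in the control and 24.3, 24.2, 23.2 and 21.0 FPKM, lowest at -200 mmHg and 15.8 times below Hspa8 in the control. Hspa1b was the 1 measured member in strictly decreasing order over all 5 libraries (1.44% of all genes measured were), and its read ratio between -80 and -200 mmHg was 1.17 (1.07 to 1.27). None of the pressure libraries was 2-fold from the control for either gene.

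The HSP110 genes, which act as nucleotide exchange factors for HSP70, both stood below the pressure libraries in the control. Hsph1, the inducible HSP110 on chromosome 5 (149614287 to 149636376), stood at 11.9 FPKM in the control and at 19.9, 19.1, 20.5 and 19.5 FPKM in order of pressure. The 4 pressure values lay within 1.07 times of each other, and the read ratio to the control was 1.64 to 1.67 at -80 and -200 mmHg (lowest bound 1.54, highest 1.79). Hspa4 differed less, with 42.6 FPKM in the control, against 47.6 to 50.9 FPKM under pressure.

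J-domain proteins deliver clients to HSP70 and start its ATP cycle. Dnaja1 stood at 24.4 FPKM in the control, against 35.3 to 38.2 FPKM under pressure, and Dnajb4 at 5.15 FPKM and 7.01 to 8.30 FPKM. For both genes the control lay below every pressure library, by less than 2-fold. Dnaja2 stood in strictly increasing order over the 5 libraries, from 66.4 FPKM in the control to 84.8 FPKM at -200 mmHg. Over all genes measured 2.01% had this order, and Hsf2 was the other member that did. Dnajb1, a strongly heat-inducible J-domain gene, stood at 16.5 FPKM in the control, against 16.5 to 18.2 FPKM under pressure. Dnajb6, which suppresses protein aggregation, showed control and pressure values that overlapped, at 24.98 FPKM and 23.8 to 25.5 FPKM. Its mean difference was -0.04 as deposited, -0.19 with the trimmed mean centred on 0 and -0.28 with the length trend removed, and with either of the latter all 4 pressures were below the control. Bag3, the exchange factor that links HSP70 to small heat shock proteins and autophagy, stood at 26.3 FPKM in the control, against 36.9 to 40.3 FPKM under pressure. The median difference of these 6 genes was 0.28 to 0.41 at the 4 pressures, above the shift of all genes, and all 6 were within 2-fold at every pressure, as were 78.1% of all genes measured. Averaged over the pressures the median was 0.34 as deposited, 0.19 with the trimmed mean centred on 0 and 0.14 with the length trend removed.

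**Figure D2:**
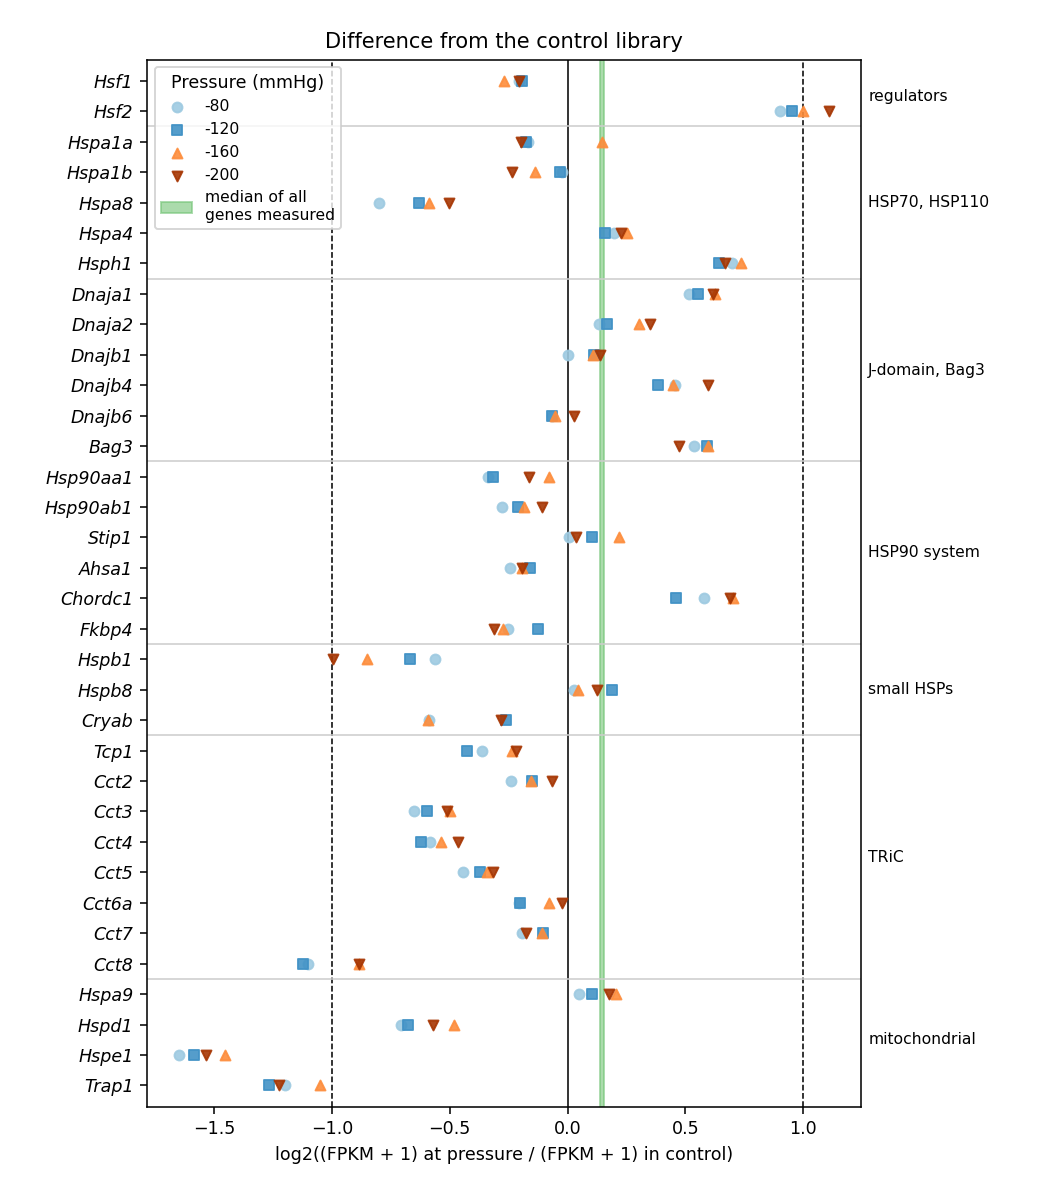
Log2 ratio of FPKM + 1 between each pressure library and the control for the 34 genes, with dashed lines at 2-fold and a band over the median of all genes measured at the 4 pressures (0.14 to 0.16). Hspe1 and Trap1 lie past the lower line at all 4 pressures, Cct8 straddles it, and Hsf2 lies near the upper line.

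Both cytosolic HSP90 genes had their highest level in the control. Hsp90ab1, the constitutive form, stood at 827 FPKM in the control and at 682, 714, 727 and 768 FPKM in order of pressure. Hsp90aa1, the inducible form, stood at 146 FPKM in the control and at 116, 117, 138 and 131 FPKM. Hsp90ab1 exceeded Hsp90aa1 by 5.65 times in the control and by 5.25 to 6.09 times under pressure, so the balance of the forms in the control lay within the range of the pressure libraries. The mean difference of Hsp90ab1 from the control was -0.20 as deposited and 0.38 under quantile normalization, which turned its direction, and that of Hsp90aa1 went from -0.22 to near 0. For Hsp90aa1 47.5% of the 50-base stretches occur in other genes, mostly in the gene model Gm12346, against 3.44% for Hsp90ab1.

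The HSP90 co-chaperones were split. Chordc1, a zinc-binding HSP90 partner, stood at 5.75 FPKM in the control and at 9.09, 8.28, 9.96 and 9.88 FPKM in order of pressure, the control being lowest. Stip1 (HOP), which hands clients from HSP70 to HSP90, stood at 104.1 FPKM in the control, against 105 to 121 FPKM under pressure, nearly level at -80 mmHg. Ahsa1, the activator of the HSP90 ATPase, stood at 22.5 FPKM and 18.8 to 20.1 FPKM, and Fkbp4, an immunophilin of steroid receptor complexes, at 71.9 FPKM and 57.8 to 65.8 FPKM. In both of these the control was highest. None of these 4 genes differed 2-fold from the control at any pressure.

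Among the small heat shock proteins, which hold damaged proteins without using ATP, the levels differed widely. Hspb1 (HSP25 in mouse, known for binding actin filaments) was the 1 member under the limit of 1 FPKM on average, and it was kept out of the counts above. It stood at 1.42 FPKM in the control and at 0.641, 0.526, 0.342 and 0.215 FPKM in order of pressure, from 27, 11, 9, 6 and 4 reads. The values stood in decreasing order, but came from few reads. The read ratio between -80 and -200 mmHg was 2.98 with an interval of 0.88 to 12.9, so a difference among the pressures was not detectable at this depth. Against the control the ratio was 0.451 at -80 mmHg (0.202 to 0.938) and 0.151 at -200 mmHg (0.0384 to 0.433). Of its 50-base stretches 50.1% occur in other genes, mainly in the pseudogene Hsp25-ps1.

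Hspb8, the partner of BAG3, stood at 55.6 FPKM in the control, against 56.6 to 63.4 FPKM under pressure. Cryab (alphaB-crystallin) stood at 72.1 FPKM in the control and at 47.7, 59.9, 47.5 and 59.01 FPKM in order of pressure. The control was highest, and the pressure libraries fell into a lower pair (-80 and -160 mmHg) and a higher pair (-120 and -200 mmHg), 1.26 times apart at the extremes (1.17 to 1.36). Cryab shares 17.04% of its exon bases with the antisense gene Hspb2. Without knowledge of strand in the counting, reads there cannot be assigned. Hspb2 itself had 33 to 52 reads per library.

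The cytosolic chaperonin TRiC folds actin and tubulin and has one copy of each of its 8 subunit types per ring. All 8 subunit genes were highest in the control, and the median difference of the 8 was -0.40, -0.40, -0.29 and -0.27 in order of pressure. Averaged over the pressures it was -0.34 as deposited, -0.12 under quantile normalization, -0.49 with the trimmed mean centred on 0 and -0.48 with the length trend removed. The cycling-cell list was lower than the control as well. Of the 8 genes, 5 kept the control above at all 4 pressures under quantile normalization, and 8 did with each of the other scalings tried. Cct8 (theta) had the largest difference. It stood at 104.1 FPKM in the control and at 47.9, 47.2, 55.9 and 55.9 FPKM, and it passed the size rule at -80 and -120 mmHg (-1.10 and -1.12) and not at -160 and -200 mmHg (-0.88 at both). With the exon length trend removed, or with the trimmed mean centred on 0, it passed at all 4.

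The other subunits differed by less. Cct3 (gamma) stood at 57.4 FPKM in the control, against 36.2 to 40.4 FPKM, and Cct4 (delta) at 70.9 FPKM and 45.7 to 51.0 FPKM. Cct5 (epsilon) stood at 175 FPKM in the control and at 129, 135, 138 and 141 FPKM in order of pressure, in increasing order under pressure. Cct2 (beta) stood at 166 FPKM in the control and at 140, 149, 149 and 158 FPKM. Tcp1 (alpha) stood at 72.02 FPKM and 53.3 to 61.8 FPKM, Cct7 (eta) at 59.4 FPKM and 51.8 to 55.1 FPKM, and Cct6a (zeta) at 71.1 FPKM and 61.5 to 69.9 FPKM. The smallest and largest differences therefore came from subunits of the same ring. In FPKM the subunits were not equal in any library. FPKM depends on the length of all annotated exons, which ran from 2557 bases (Cct2) to 6778 (Cct7). In reads the control held 8926 for Cct5 and 6730 for Cct3, so part of the inequality follows from these lengths. By FPKM the most abundant exceeded the least abundant 3.05 times in the control and 3.68 to 3.96 times under pressure. Also by FPKM, Cct8 was the third most abundant subunit in the control, and at every pressure Tcp1 and Cct6a stood above it. In reads Cct8 (5912) was already below Tcp1 (6665) in the control. Parts of Tcp1 (16.9% of exon bases), Cct6a (15.3%) and Cct8 (6.22%) overlap other genes.

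**Figure D3:**
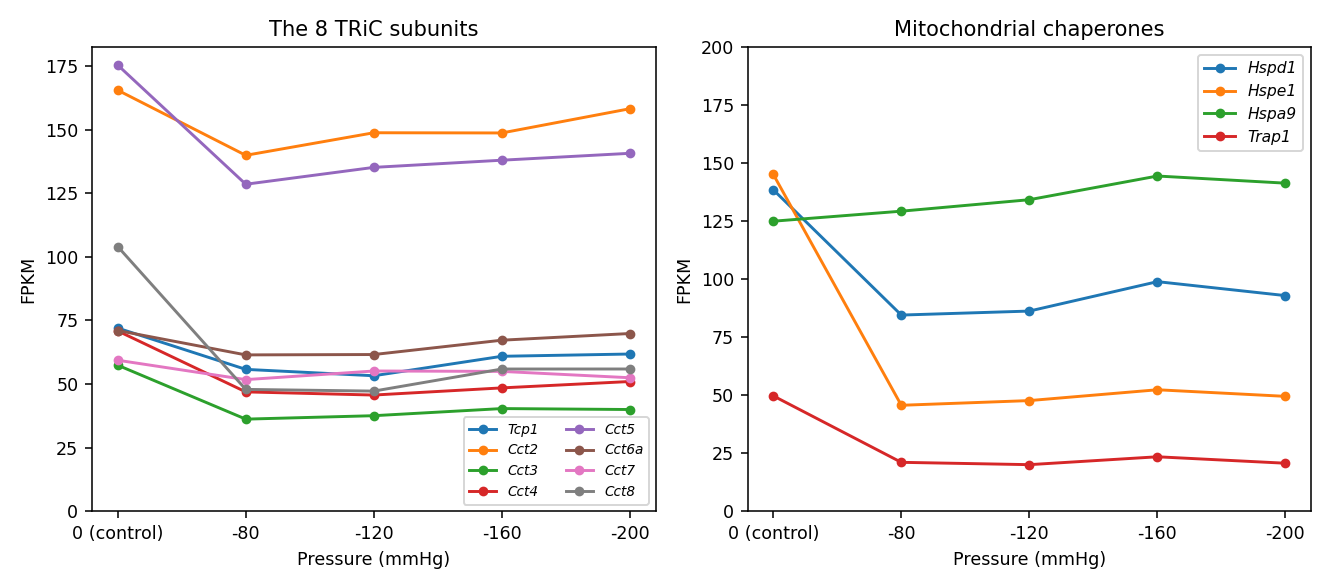
FPKM in the 5 libraries for the 8 TRiC subunits (left) and the 4 mitochondrial chaperones (right), both axes starting at 0, 1 point per library and lines joining the libraries of a gene. Cct8 stands at 104.1 FPKM in the control, against 47.2 to 55.9 FPKM under pressure, and Hspe1 lies above Hspd1 in the control and below it at all pressures.

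Among the measured members, the mitochondrial Hspe1 and Trap1 had the largest mean differences on the log2(FPKM + 1) scale. With a pseudocount of 0.1 the mean difference of Hsf2 (1.31) was larger in size than that of Trap1 (-1.22). HSP60 (Hspd1) and its lid HSP10 (Hspe1) form the matrix chaperonin. Hspe1, on chromosome 1 (55088132 to 55091307), stood at 145 FPKM in the control and at 45.7, 47.7, 52.4 and 49.6 FPKM in order of pressure, from 3940 reads in the control and from 1121 to 1319 in the others. Every pressure library was past 2-fold below the control, with log2 differences of -1.65, -1.59, -1.45 and -1.53. The read ratio was 0.315 at -80 mmHg (0.294 to 0.336) and 0.341 at -200 mmHg (0.320 to 0.363). Hspe1 stayed past the size rule under each alternative tried. Hspd1 stood at 139 FPKM in the control and at 84.6, 86.3, 99.0 and 93.0 FPKM, also below the control but by less than 2-fold.

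The pair thus differed unequally. The level of Hspe1 was 1.05 times that of Hspd1 in the control and 0.540, 0.553, 0.529 and 0.533 times in order of pressure. The 4 pressure ratios lay close together and apart from the control ratio. Both genes share 50-base stretches with other annotated genes, 42.1% for Hspd1 and 22.8% for Hspe1, and 7.60% of the exon bases of Hspe1 overlap Hspd1 on the other strand.

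Trap1, the mitochondrial HSP90, on chromosome 16 (4039971 to 4077827), stood at 49.8 FPKM in the control and at 21.1, 20.1, 23.5 and 20.7 FPKM in order of pressure. All 4 were past 2-fold below the control, with log2 differences of -1.20, -1.27, -1.05 and -1.22. The read ratio was 0.424 at -80 mmHg (0.393 to 0.458) and 0.416 at -200 mmHg (0.386 to 0.449). Trap1 has little sequence in common with other genes (0.19% of its 50-base stretches). It missed the size rule at 1 or more pressures with a pseudocount of 5 and under quantile normalization. Hspa9 (mortalin), the matrix HSP70 that also pulls proteins through the import channel, went the other way. It stood at 125 FPKM in the control and at 129, 134, 145 and 141 FPKM, with the control lowest. Its mean difference of 0.13 lay just under the shift of all genes and was -0.01 with the trimmed mean centred on 0.

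Exon length moved with the differences from the control. Over all genes measured, the median of the mean difference was -0.08 in the tertile with the shortest exons, 0.13 in the middle tertile and 0.33 in the longest. The medians of the members in these tertiles were -0.24, -0.20 and 0.34. Of the 10 members in the longest tertile 6 had a positive mean difference, against 3 of 11 in the shortest and 3 of 12 in the middle. Hsf2, Dnaja1, Dnajb4, Chordc1 and Hsph1 have exons of 7266 to 9606 bases in all, and Hspe1 has 1474. With this trend removed the mean difference was 0.67 for Hsf2 in place of 0.99, 0.18 for Dnaja1 in place of 0.58, 0.08 for Dnajb4 in place of 0.47, 0.36 for Chordc1 in place of 0.61 and 0.44 for Hsph1 in place of 0.69. Hsf1 and Cct7, with exons of 7099 and 6778 bases in all, had -0.53 in place of -0.22 and -0.43 in place of -0.15. It was 0.58 for Bag3 in place of 0.55, -1.37 for Hspe1 in place of -1.55 and -1.15 for Trap1 in place of -1.18. All 8 TRiC subunits and Hspa8 stayed below the control at all 4 pressures, while Dnajb4, Hspa4 and Hspa9 no longer lay above it at all 4 and Dnajb6 lay below it at all 4.

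**Figure D4:**
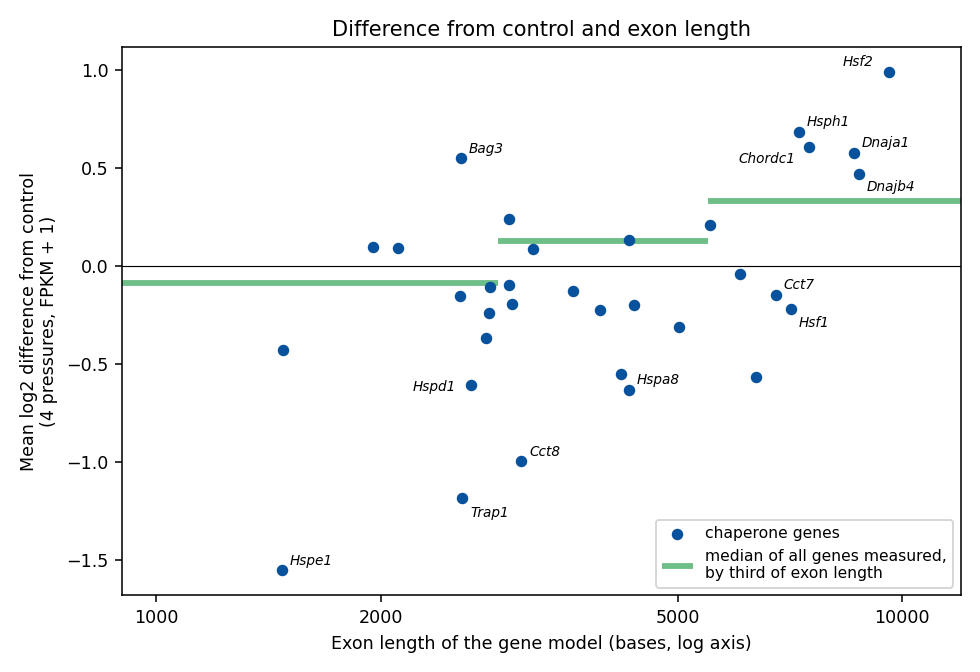
Mean log2 difference from the control over the 4 pressures against exon length (log axis) for the 33 measured chaperone genes, 1 point per gene, with bars at the median of all genes measured in each tertile of exon length. Hsf2, Hsph1, Chordc1 and Dnaja1, with long exons, lie highest, and Hspe1, Trap1 and Cct8 lie lowest.

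The next comparison was among the 4 pressures, which leaves the control out. Chaperone genes differed little between these libraries. In 0 of 33 measured members was the highest pressure library 1.5 times the lowest, against 12.0% of all genes measured. The median ratio of highest to lowest was 1.14, against 1.20 for all genes. Members and all genes were not matched for level here. Of the 33 members 26 averaged 20 FPKM or more, against 2709 of the 12113 genes measured. The largest ratio was in Hspa1a at 1.44 (1.08 to 1.91), which has few reads of its own, and the smallest in Hsf1 at 1.06 (0.98 to 1.15).

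Within this narrow range the members leaned one way. At -160 mmHg 28 of the 33 stood above -80 mmHg, against 51.6% of all genes measured, and at -200 mmHg 27 did, against 47.4%. All 8 TRiC subunits were above -80 mmHg in both libraries, and Hspd1, Hspe1, Hspa8, Hspa9, Dnaja1, Dnaja2 and both cytosolic HSP90 genes were as well. The sizes were small, with a median difference over the members of 0.10 at -160 mmHg and 0.12 at -200 mmHg, where the median of all genes was 0.01 and -0.01. Among the 2709 genes averaging 20 FPKM or more, a limit chosen after the data were seen, the shares were 61.8% and 60.9%, and for the members above that limit they were 23 of 26 and 22 of 26. Under quantile normalization the counts were 27 and 23. Against -120 mmHg, 24 of 33 members were higher at -160 mmHg (52.9% of all genes measured) and 23 at -200 mmHg (51.6%). Above the limit of 20 FPKM these were 19 and 18 of 26 members (42.9% and 50.6%). The lowest of the 4 libraries was -80 mmHg in 18 members (25.9%), and the highest was -160 mmHg in 13 (25.4%) and -200 mmHg in 13 (23.6%). The cycling-cell sum was 129.3, 127.4, 179.4 and 133.8 FPKM in order of pressure, and its part in this lean was not tested.

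Strict order by pressure was seen in a few members. Hspa8, Hsp90ab1, Cct5, Cct6a, Dnaja2 and Hsf2 stood in increasing order from -80 to -200 mmHg, against 5.67% of all genes measured, and Hspa1b stood in decreasing order, against 6.19%. For Hspa8 the ratio of -200 to -80 mmHg was 1.23 (1.21 to 1.26), for Hsp90ab1 1.13 (1.11 to 1.14) and for Dnaja2 1.16 (1.11 to 1.22). These intervals hold no variation between cultures.

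**Figure D5:**
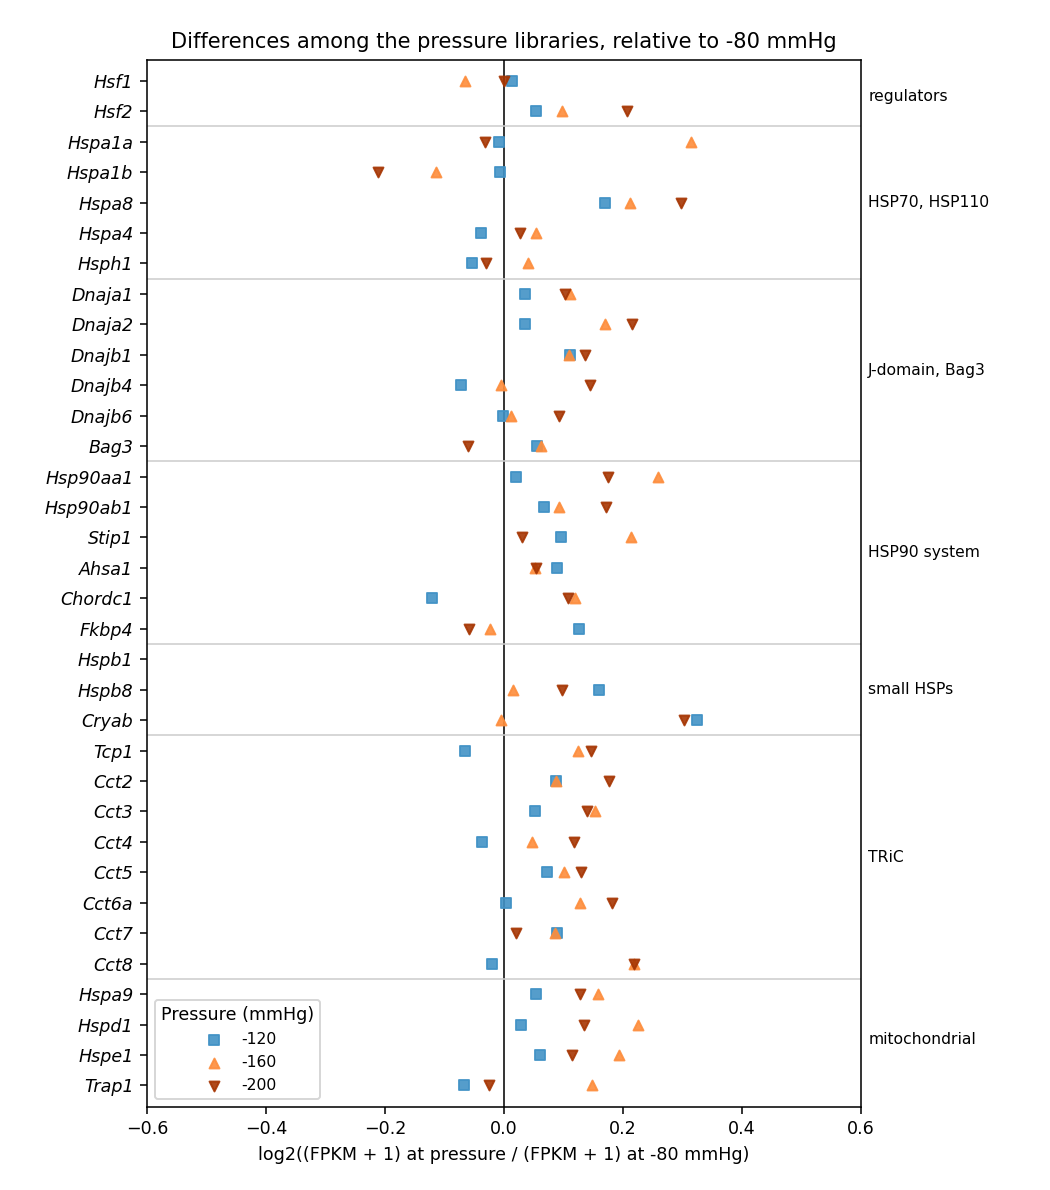
Log2 ratio of FPKM + 1 at -120, -160 and -200 mmHg to that at -80 mmHg for the 33 measured genes (Hspb1 left empty). Most points for -160 and -200 mmHg lie right of 0, and all TRiC points for these libraries do.

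Other genes of protein folding were taken from lists written with earlier results of these data known. Of 42 further cytosolic chaperones and co-chaperones 39 were measured, and 2 were higher and 0 lower at all 4 pressures, against 6.49% and 4.46% of all genes measured. The 2 were Hspa12a, a distant HSP70 relative (0.532 FPKM in the control, 6.77 to 7.48 FPKM under pressure), and Cdc37l1, an HSP90 co-chaperone (2.69 FPKM and 6.63 to 7.70 FPKM). Its median difference lay between -0.04 and 0.09. Prefoldin and the tubulin cofactors feed TRiC or take over from it. Of 15 genes for prefoldin, tubulin cofactors and other TRiC partners, 11 had the control above all pressures. The share over all genes measured was 33.3%, and the median difference of the 15 was -0.50 to -0.32. One, the tubulin cofactor Tbca, passed the size rule at all 4 (172 FPKM in the control, 64.7 to 72.7 FPKM under pressure). The wider set of mitochondrial folding and quality-control genes also held the HSP70 relative Hspa13. All 18 of its genes passed the rule at no pressure, against 78.1% of all genes measured. The median of this set was -0.11 to -0.04.

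A list of genes known to respond to heat shock or HSF1, which repeats the member Hsp90aa1, did not share one direction. Of 10 measured, Hsp90aa1 included, 2 were higher at all 4 pressures, and 8 passed at none, against 6.49% and 78.1% of all genes measured. Hmox1 (heme oxygenase), which also responds to oxidants, stood at 127 FPKM in the control, against 255 to 305 FPKM under pressure. Dusp1, a phosphatase of MAP kinases and an immediate early gene, stood at 36.6 FPKM and 90.8 to 99.6 FPKM. Serpinh1 (HSP47), the collagen chaperone, stood at 549.9 FPKM and 556 to 596 FPKM. For comparison, 14 endoplasmic reticulum chaperones had a median difference of 0.38, 0.47, 0.51 and 0.55 in order of pressure. The median of all genes measured was 0.14 to 0.16. Of the 14 genes 3 were higher at all 4 pressures, against 6.49% of all genes measured. These were Dnajc3 (13.1 FPKM in the control and 48.6 to 55.5 FPKM in the others), Hyou1 (11.6 and 27.9 to 32.4 FPKM) and Dnajb9 (7.80 and 19.8 to 22.3 FPKM). Hspa5 (BiP), the HSP70 of that compartment, stood at 233 FPKM in the control and at 324, 348, 371 and 390 FPKM, while Hspa8 was lower under pressure. The 14 genes of the proteasome core had a median of -0.68 to -0.53. With 1 library per condition the difference between these lists and the chaperone members was not tested.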

How the data were processed

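Members and gene lists were chosen with earlier results of these data known. The values are FPKM, deposited by the authors for each gene in a single table. The submitters' processing notes list HISAT2, SAMtools, featureCounts 1.5.0-p3 and rn6, a rat build. It was not used, because all IDs are mouse Ensembl IDs. Strand, read length and filters are not given in the sources used here. Symbols, GRCm38 coordinates and exon lengths came from GENCODE mouse release 21 (54349 of 55401 IDs matched with version, 55141 in any version). For 54719 genes FPKM times exon length gave whole reads within 0.001 in each library, from which totals and read numbers were taken. These served only for totals, read numbers and intervals. There were 0 columns of other samples.

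No test was run. A single library per condition allows none between a pressure and the control, and a trend over the 4 pressures was not fitted. Every member was accounted for. The value in each library was given for members past 2-fold at 1 or more pressures, the 5 most abundant, those with a 1.5-fold range among pressures, Hsf1, Hsf2 and the paired genes, and for some others. From the further lists of protein folding and heat shock genes, up to 3 members a direction past the rule at all 4 pressures were named. Serpinh1 and Hspa5 fall outside that rule and were added after their values were seen. Shared sequence was counted as distinct 50-base stretches found in GENCODE transcripts of another gene on either strand. The code that applies the size rule was checked on simulated reads. Software was matplotlib 3.10.9, scipy 1.17.1, pandas 2.3.3 and numpy 2.4.6 under Python 3.11.15.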

Additional observations from a re-analysis of the deposited data

How the results depend on the processing

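No paired analysis was possible because each condition had 1 library. The count of members lower at all 4 pressures was 2 as reported, where 4.46% of all genes were. It was 1 (Hspe1) with a pseudocount of 5 (2.72% of all genes) and under quantile normalization (4.65%). It was 3 (with Cct8) with the trimmed mean centred on 0 (5.94%), a 1.5-fold rule (10.4%) or the length trend removed (5.02%). The count higher at all 4, 0 as reported, was 1 (Hsf2) with a pseudocount of 0.1 (11.4% of all genes) and 2 (Hsf2 and Hsph1) with a 1.5-fold rule (17.8%). With a read-ratio interval wholly on one side of 1 in place of the 2-fold rule, 9 were higher and 17 lower (39.4% and 24.4% of all genes), since deep genes pass on counting error alone. The median difference of the members, averaged over the 4 pressures, was -0.16 as reported, -0.30 with the trimmed mean centred on 0, -0.20 with the length trend removed and 0.0128 under quantile normalization. Leaving out each pressure library in turn gave 0 and 2 members each time and a median between -0.17 and -0.14. A value counted as moved when it changed by more than the SD of the medians over the 4 pressures or the counting interval. Upper-quartile scaling, other limits on low values, the 50 most abundant genes left out, coding genes only (which drops Cct6a, annotated as a processed transcript) and the sum of Hspa1a and Hspa1b gave the reported counts.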
